A study of Mus musculus with 6 samples.

Results

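Chromosome 5 of the mouse was followed through the subcompartment labels and chromatin loops of E14 embryonic stem cells after knockdown of either of 2 chromatin remodellers. All bins of 50 kb on the chromosome with a label in all 6 Hi-C libraries were taken, which gave 2920 of 2975 labelled bins on it and 2920 of the 47717 bins on all 19 autosomes. All chromosome 5 loops were taken too: 359 of 5903 in the control list, 369 of 6013 in the Brg1KD list and 339 of 5475 in the Ino80KD list. Chromosome 5 was picked because shifts towards B after Ino80 knockdown gather on it, so every Ino80KD value given here describes that choice, model counts included, and supports nothing. The control libraries entered the choice too, so comparisons of Brg1KD with control on this chromosome are not independent of it.

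The cells were E14TG2a, a line derived from a male mouse and kept undifferentiated in serum with LIF on gelatin. The 3 treatments were compared, each by transient transfection of esiRNA, a pool of enzymatically cut short interfering RNAs, with harvest 48 h later: against EGFP, a reporter gene foreign to mice (control), against Smarca4, which encodes Brg1 (Brg1KD), and against Ino80 (Ino80KD). Each group has 2 libraries, replicate 1 from batch 1 and replicate 2 from batch 2. The labels do not say that the replicates are separate cultures, so the spread between them may be technical. Hi-C gives no transcript level, so neither the depth of the knockdowns nor stem cell markers could be read from these files, and no read numbers were given, so sequencing depth is unknown.

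Hi-C joins and sequences pieces of DNA that lie near each other in the nucleus. Chromosomes divide into A stretches, rich in active genes and placed inwards, and B stretches, poor in genes and often at the nuclear lamina, and finer contact patterns split each into subcompartments. Here 8 subcompartments were ranked from 1 (B.2.2, the most B-like) to 8 (A.1.1, the most A-like), and 1 step is called 1 class below. Loops are pairs of anchors in closer contact than their surroundings, many of them held by cohesin and CTCF. Brg1 is the ATPase of the esBAF complex, which opens chromatin at enhancers of stem cells, and Ino80 is the ATPase of the INO80 complex, which slides and spaces nucleosomes.

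Promoters from 5 stretches of the chromosome show how different the sequence in them is. Gsx2 and Fzd10 stand for A stretches that were lower in Ino80KD, and Uchl1 for one that was lower in both knockdowns. Csn2 stands for a B stretch that was lower in both, and Cdx2 for an A stretch that was higher in Brg1KD. Of the Gsx2 stretch 11 of 19 bins were lower in Brg1KD too, though not the bin of Gsx2 itself. Each run is the 250 bases before the RefSeq start of transcription (GRCm38.p6, the assembly that mm10 names), 5′ to 3′ on the strand of the gene, with CpG dinucleotides in capitals.
Gsx2 (chr5:75075351-75075600, plus strand): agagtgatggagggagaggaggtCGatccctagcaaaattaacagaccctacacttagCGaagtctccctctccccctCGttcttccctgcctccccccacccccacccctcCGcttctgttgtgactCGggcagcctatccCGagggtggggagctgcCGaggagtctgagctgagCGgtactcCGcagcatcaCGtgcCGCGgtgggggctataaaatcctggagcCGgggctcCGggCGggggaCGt
Fzd10 (chr5:128600856-128601105, plus strand): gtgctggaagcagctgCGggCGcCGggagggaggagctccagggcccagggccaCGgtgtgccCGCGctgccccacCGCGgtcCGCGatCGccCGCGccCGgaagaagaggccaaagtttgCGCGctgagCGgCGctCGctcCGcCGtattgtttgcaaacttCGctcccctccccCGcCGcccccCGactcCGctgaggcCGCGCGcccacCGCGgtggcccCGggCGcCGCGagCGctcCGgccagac
Uchl1 (chr5:66675871-66676120, plus strand): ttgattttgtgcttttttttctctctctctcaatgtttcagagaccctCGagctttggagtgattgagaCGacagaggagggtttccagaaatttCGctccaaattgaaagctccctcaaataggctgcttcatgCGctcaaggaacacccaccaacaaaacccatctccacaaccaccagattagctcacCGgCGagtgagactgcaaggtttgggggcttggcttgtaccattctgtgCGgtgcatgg
Csn2 (chr5:87699426-87699675, minus strand): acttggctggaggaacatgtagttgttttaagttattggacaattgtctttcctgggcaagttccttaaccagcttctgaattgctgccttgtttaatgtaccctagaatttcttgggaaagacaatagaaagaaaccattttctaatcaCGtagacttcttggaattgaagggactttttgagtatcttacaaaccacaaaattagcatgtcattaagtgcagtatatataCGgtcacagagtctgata
Cdx2 (chr5:147307250-147307499, minus strand): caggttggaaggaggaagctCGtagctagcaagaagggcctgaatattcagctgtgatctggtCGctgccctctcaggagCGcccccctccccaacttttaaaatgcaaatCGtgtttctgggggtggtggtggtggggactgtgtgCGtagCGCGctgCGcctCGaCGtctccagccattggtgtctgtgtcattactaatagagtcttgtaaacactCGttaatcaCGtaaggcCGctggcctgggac
The Fzd10 window holds 37 CpG at 76.4% G and C, Gsx2 16 at 63.6%, Cdx2 13 at 55.2%, Uchl1 7 at 48.8% and Csn2 2 at 36.8%. The median over the 1272 promoters of protein-coding genes on chromosome 5 was 13 CpG, beside 6 over all 32851 promoters of the table. The exact hexamer TATAAA, a form of the TATA box, was present on either strand in the Gsx2 window only of these 5. It was in 7.78% of the promoters of protein-coding genes on chromosome 5 and in 12.4% of the table. The table was not limited to protein-coding genes and includes chromosome 5. Neither the CpG medians nor these shares therefore compare chromosome 5 with like promoters elsewhere. Other forms of the box were not searched for, so a window without this hexamer may still hold one.

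Chromosome 5 carried more A than the other autosomes in control cells, and in Ino80KD this surplus was smaller. A subcompartments held 42.8% and 43.5% of its bins in the control libraries (batch 1 and batch 2), 41.6% and 41.8% in Brg1KD, and 39.4% and 39.5% in Ino80KD. The 3 groups did not overlap, with Ino80KD lowest and Brg1KD between. On the other autosomes the shares were 39.3% and 39.4% in control, 38.3% and 38.6% in Brg1KD and 38.4% and 38.6% in Ino80KD. There the knockdowns lay on top of each other, both below control.

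**Figure D1:**
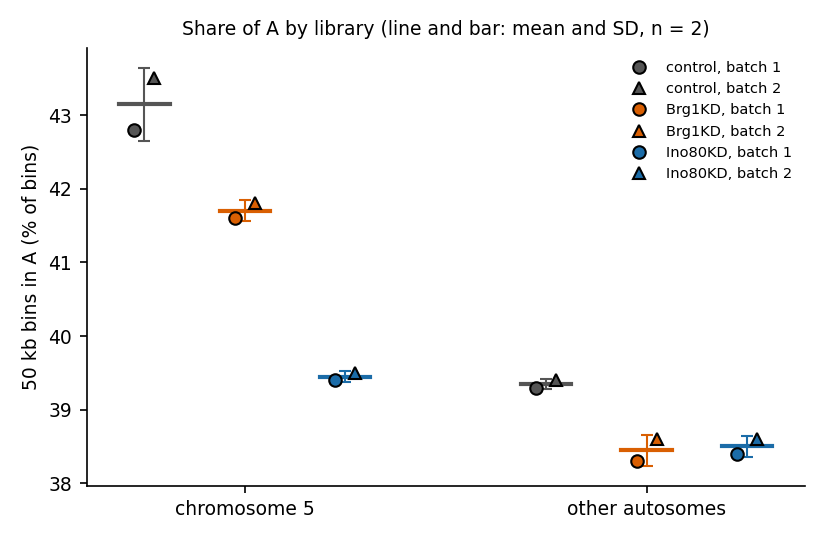
Share of 50 kb bins in A (percent of bins, vertical axis cut to the range of the data) on chromosome 5 and on the other autosomes, with 1 point for each library, and the mean and SD of each group of 2. On chromosome 5 the Ino80KD libraries sit at 39.4% and 39.5% and the controls at 42.8% and 43.5%, while on the other autosomes all libraries lie between 38.3% and 39.4%.

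Measured against control, the A share of chromosome 5 was 43.2% ± 0.484 (SD, n = 2) in control and 39.4% ± 0.0484 in Ino80KD, a difference of -3.73 percentage points, -3.42 within batch 1 and -4.04 within batch 2. The other autosomes differed by -0.874 points between the same libraries. Brg1KD held 41.7% ± 0.145, a difference of -1.47 points (-1.23 and -1.71 within the batches), beside -0.91 on the other autosomes. The exact two-sided permutation test of the Brg1KD share gave p = 0.333, the smallest that 2 libraries against 2 allow, so it could not reach 0.05. The surplus of A on chromosome 5 over the other autosomes was 3.5 and 4.09 points in control, 3.32 and 3.15 in Brg1KD, and 0.979 and 0.894 in Ino80KD. The mean rank went the same way, from 4.14 ± 0.0063 in control to 4.01 ± 0.0186 in Brg1KD (-0.133 classes; exact permutation p = 0.333) and 3.93 ± 0.039 in Ino80KD (-0.217 classes). Over the other autosomes together these differences were -0.0816 and -0.0684 classes. Single autosomes went further: chromosome 19 differed by -0.295 classes in Ino80KD, and in Brg1KD chromosomes 8 (-0.178), 19 (-0.165), 13 (-0.152), 16 (-0.138) and 10 (-0.135) all differed by more than chromosome 5.

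The B end of the scale differed from control in both knockdowns, and the A end in Ino80KD only. B.2.2, the most B-like class, held 20.5% and 20.1% of chromosome 5 in control, 23.5% and 24.2% in Brg1KD, and 24.2% and 25.5% in Ino80KD. Both knockdowns were above both controls, by 3.54 points in Brg1KD (exact permutation p = 0.333) and 4.54 points in Ino80KD, beside 1.69 and 1.32 points on the other autosomes. A.1.1, the most A-like class, held 15.6% and 18.3% in control, 15.5% and 18% in Brg1KD, and 14.3% and 14% in Ino80KD. The controls differed from each other there by more than Brg1KD differed from them, and Ino80KD was below all the other libraries. B.1.1, the class just under the A border, held 7.05% and 6.75% in control, 8.8% and 7.09% in Brg1KD, and 9.76% and 8.94% in Ino80KD. A.2.1 was at 8.8% and 8.84% in control and at 8.53% and 6.06% in Ino80KD, so that its Ino80KD mean rests mainly on the library of batch 2. The replicates of control had the same label in 74.4% of the bins of chromosome 5, those of Brg1KD in 70.8% and those of Ino80KD in 72.7%, and differed by no more than 1 class in at least 97.1%.

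Bin by bin, the differences of Ino80KD ran almost in a single direction, and those of Brg1KD less so. A bin is counted here when both libraries of a knockdown lay beyond both controls in rank. In Ino80KD 362 bins lay lower, or towards B (12.4% of chromosome 5; over all autosomal bins 4.50% were counted), and 24 lay higher, or towards A (0.822%; 1.76% over all). Chromosome 5 ranks first of the 19 autosomes by the first share and 17th by the second, and chromosome 19 is next to it towards B with 11.3%. With 6.12% of the bins it holds 16.9% of all those towards B, which is the pattern it was picked for. In Brg1KD 272 bins lay towards B (9.32%; 7.19% over all) and 72 towards A (2.47%; 3.13% over all), which places chromosome 5 at rank 3 of the autosomes towards B. Both comparisons use the same controls. Their values are therefore given side by side.

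**Figure D2:**
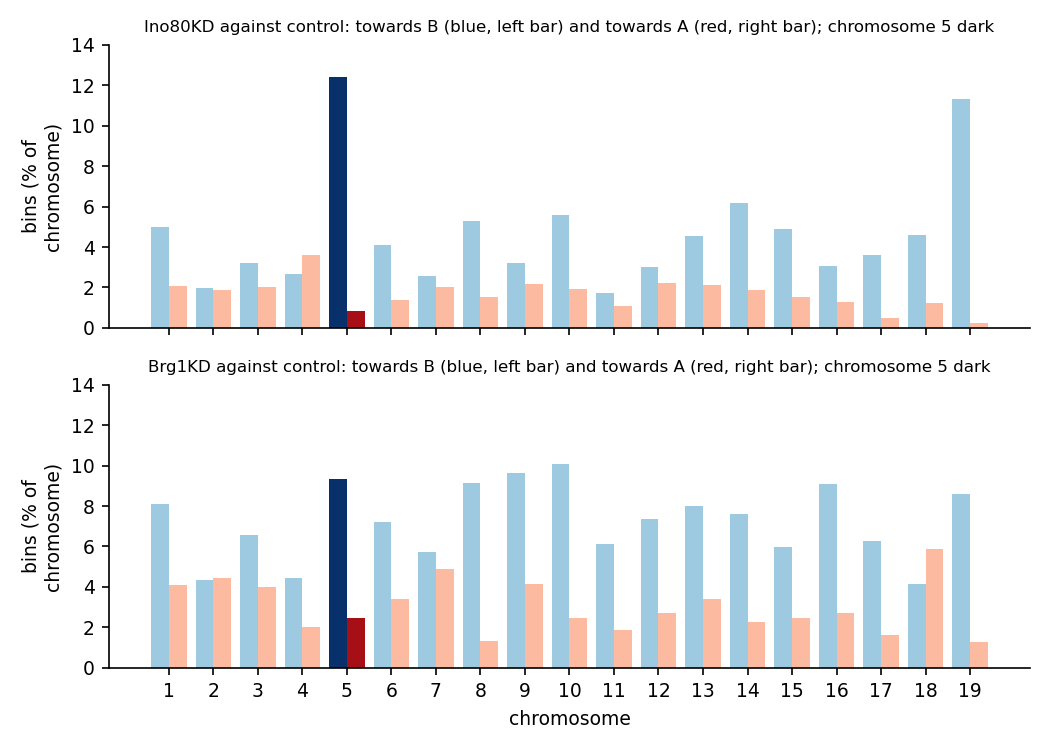
Bins in which both knockdown libraries lay beyond both controls, as percent of the bins of each autosome, towards B (left bar) and towards A (right bar), with Ino80KD above and Brg1KD below. Chromosome 5 (dark) reaches 12.4% towards B and 0.822% towards A in Ino80KD, and 9.32% and 2.47% in Brg1KD.

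Of the bins of chromosome 5, 61 lay in A in both controls and in B in both Ino80KD libraries (0.616% of all autosomal bins did so), and 3 made the opposite crossing (0.161%). In Brg1KD 43 crossed from A to B (1.00% of all bins) and 21 from B to A (0.451%). Most shifts were small: of the 362 bins towards B in Ino80KD 327 differed by 1 class, 27 by 1.5, 6 by 2 and 1 each by 2.5 and 5 classes. In Brg1KD 211 of 272 differed by 1 class. Within the batches Ino80KD lay below its control in 787 bins and above it in 258 in batch 1, and in 842 and 156 bins in batch 2. Brg1KD lay below in 657 and 649 bins and above in 374 and 250.

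By limma, with Benjamini-Hochberg adjustment over all 47717 bins, 156 bins of chromosome 5 were called towards B in Brg1KD (3.30% of all bins were) and 30 towards A (1.53%), which is 5.34% and 1.03% of the chromosome. The controls of this comparison also served to pick the chromosome, so nothing is read from these shares. All 186 of these calls are among the 1316 bins in which the replicates of every group carried the same label, and such bins have no residual spread, so the p-values are not calibrated. The 3 groups share 1 fit, so the Ino80KD replicates enter the Brg1KD calls. No bin in which they differed was called in Brg1KD, whatever its shift. Called and uncalled Brg1KD runs below are therefore not ranked by these calls. With 1 variance common to all bins, 84 and 24 were called. The same fit gave 216 bins towards B and 14 towards A in Ino80KD (2.37% and 0.855% of all bins), and 14 and 6 with the common variance, listed as counts only, since the choice of chromosome used this contrast.

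How often a bin shifted varied with the label it carried in control. In 2172 bins both controls carried the same label. Of those in A.2.2, the A class next to the border, 43.2% lay towards B in Ino80KD, and of A.2.1 38.9%, against 21.6% of A.1.2 and 10.1% of A.1.1. On the B side it was 23.2% of B.2.1, 19.9% of B.1.2 and 9.35% of B.1.1. Brg1KD had its highest shares in A.2.1 (27%), A.1.2 (26%) and A.2.2 (22.4%), and 2.52% in A.1.1. Bins of B.2.2 cannot go lower, and those of A.1.1 cannot go higher.

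**Figure D3:**
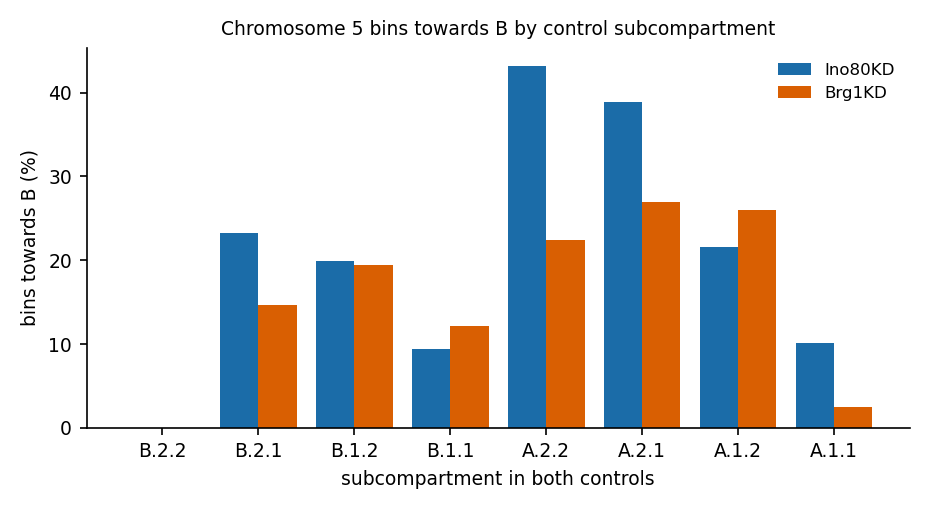
Share of chromosome 5 bins (percent, vertical axis) that lay towards B in Ino80KD and Brg1KD, by the subcompartment that both controls carried (horizontal axis, from the most B-like to the most A-like). The tallest bars are those of Ino80KD in A.2.2 (43.2%) and A.2.1 (38.9%).

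The shifted bins formed runs. In Ino80KD the 362 bins towards B made 57 runs with a median of 250 kb, 11 of them of 500 kb or more and the longest 1150 kb, and hold 126 protein-coding genes. The 24 bins towards A made 11 runs, 7 of them single bins. Brg1KD had 52 runs towards B, also with a median of 250 kb, with 90 genes, and 28 runs towards A with a median of 100 kb and 33 genes. Bins at the edge of a control segment were 27.6% of the chromosome, 27.1% of those towards B in Ino80KD and 27.9% in Brg1KD, but 45.8% of those towards A in either knockdown, which are 24 and 72 bins. Protein-coding genes were at 8.33 per Mb over the chromosome, at 6.96 and 6.62 per Mb in the bins towards B of Ino80KD and Brg1KD, and at 4.17 and 9.17 per Mb in those towards A. Promoters in the bins towards B had a median of 9.5 CpG in Ino80KD and 8 in Brg1KD, beside 13 on the chromosome. In the bins towards A the median was also below 13, at 3 in Ino80KD (8 promoters) and 12 in Brg1KD (41 promoters).

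Along the chromosome both knockdowns had bins towards B in most windows, in unequal numbers, and the differences between them were not tested. Counted in 16 windows of 10 Mb, Ino80KD had most bins towards B between 60 and 70 Mb (45 bins, 22.5%), then between 100 and 110 Mb and between 110 and 120 Mb (37 each). Brg1KD had most between 40 and 50 Mb (41 bins, 20.5%) and between 30 and 40 Mb (38), followed by 60 to 70 Mb (26). In the first 10 Mb there were 19 bins towards B in Ino80KD and 0 in Brg1KD, and between 50 and 60 Mb 18 and 1. Towards A, Brg1KD had most between 140 and 150 Mb (19 bins, 9.5%), then between 100 and 110 Mb (9) and between 10 and 20 Mb (7). Ino80KD had 7 between 30 and 40 Mb, 6 between 70 and 80 Mb and at most 3 in any other window. The mean shift was below 0 in both batches in 15 of the 16 windows in Ino80KD, the exception being the last, which holds 35 bins, and in 12 of the 16 in Brg1KD.

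**Figure D4:**
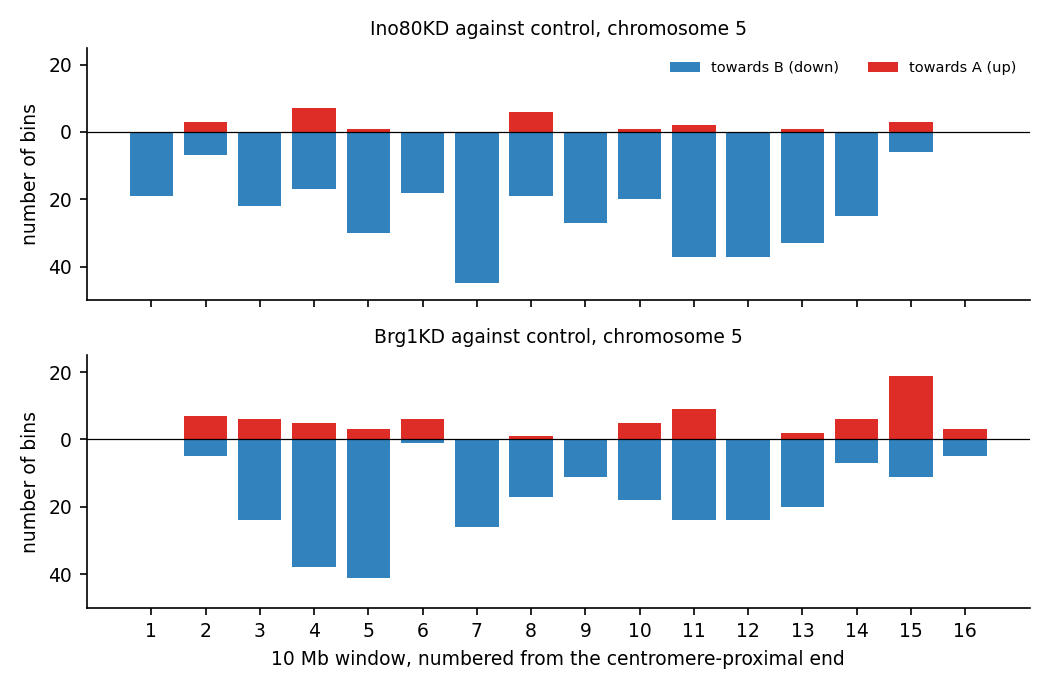
Number of chromosome 5 bins towards B (downwards) and towards A (upwards) in each window of 10 Mb, numbered from the centromere-proximal end, for Ino80KD (top) and Brg1KD (bottom). Window 7 holds 45 bins towards B in Ino80KD, window 5 holds 41 in Brg1KD, and window 15 holds 19 towards A in Brg1KD.

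The longest run towards B in Ino80KD (64150001 to 65300000, mm10) holds Tbc1d1, a Rab GTPase-activating protein of glucose uptake, Klf3, a zinc finger repressor, and Tlr1 and Tlr6, receptors for bacterial lipopeptides, with Gm46913 and Gm38457 between. All its 23 bins were A.1.1 in both controls. The mean rank was 8.00 in both controls, 7 and 6.87 in Ino80KD, and 7 and 7.61 in Brg1KD. Thus both Ino80KD libraries lay below the controls over the whole run, while in Brg1KD batch 2 kept A.1.1 in 14 of the bins.

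The second run (87300001 to 88300000) lies in B and holds families of liver and milk genes. Ugt2a3, Ugt2b38, Ugt2a1 and Ugt2a2 encode enzymes that attach glucuronic acid, Sult1b1 and Sult1d1 encode sulfotransferases, and the caseins follow, of which Csn2 encodes beta-casein. Its 20 bins were B.2.1 in both controls and B.2.2 in both Ino80KD libraries, so the mean rank went from 2.00 to 1.00 in each. Brg1KD lay between, at 1.45 and 1.35, with B.2.2 over the first 11 bins in both libraries.

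The third run (74200001 to 75150000) ends at Gsx2, a homeobox factor of the ventral forebrain, after Scfd2, Fip1l1, a factor of mRNA polyadenylation, Lnx1, a ubiquitin ligase, and Chic2. Its mean rank was 5.89 in both controls, 4.89 in both Ino80KD libraries, and 4.95 and 5.05 in Brg1KD. In 11 of its 19 bins Brg1KD lay below both controls too. Chic2 and Gsx2 went from A.1.2 in the controls to A.2.1 in both Ino80KD libraries and stayed A.1.2 in both of Brg1KD. Scfd2 was A.2.2 in the controls and B.1.1 in all 4 knockdown libraries. A stretch without a protein-coding gene placed in it (74650001 to 74950000) was A.2.1 in control, A.2.2 in Ino80KD and B.1.1 in Brg1KD.

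Fzd10, a Wnt receptor, Piwil1, which binds piRNAs, Rimbp2, a presynaptic scaffold, Stx2, a membrane fusion protein, Ran, the GTPase of nuclear transport, and Adgrd1, an adhesion receptor, share a run of 17 bins (128450001 to 129300000). Both controls and both Brg1KD libraries had the same label in each of these bins, with a mean rank of 6.82 in all 4. In both Ino80KD libraries the mean rank was 5.82, with A.2.1 replaced by A.2.2 in 10 bins and A.1.1 by A.1.2 in 7.

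The other 4 of the 8 largest runs towards B in Ino80KD are a stretch that holds the midpoint of no protein-coding gene (111450001 to 112200000), another such stretch (132950001 to 133600000), the region of Nxpe5, Lamtor4, Map11, Gal3st4, Stag3 and Gpc2 (138200001 to 138750000) and that of Ldb2 (44250001 to 44850000). Stag3 encodes the cohesin subunit of meiosis, Lamtor4 a part of the Ragulator complex at lysosomes, and Ldb2 a partner of LIM domain factors. The Stag3 region had a mean rank of 5.27 in both controls and of 4.00 and 4.27 in Ino80KD, across the border to B in 11 and 8 of its 11 bins, and of 5.00 and 4.82 in Brg1KD. The bins of its genes named here did not go lower in Brg1KD. They were A.2.2 in both controls, and A.2.2 and A.1.2 in Brg1KD. The first of these stretches was at 6 in both controls, 4.53 and 5.00 in Ino80KD and 5.00 in both Brg1KD libraries. Ldb2 itself was B.2.1 in both controls and B.2.2 in all 4 knockdown libraries.

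Towards A, Ino80KD had few runs, and some touch a border of a neighbour. Clnk, an adaptor of immune receptors, lies in the largest (38750001 to 39100000), where 7 bins were B.2.2 in both controls and both Brg1KD libraries and B.2.1 in both Ino80KD libraries. The bin just before it (38700001 to 38750000), named after its value was seen, differed most from control of all on the chromosome in Ino80KD: rank 7 in both controls, 2 in both Ino80KD libraries, and 1 and 6 in Brg1KD. Pdgfra, the receptor for platelet-derived growth factor, lies in a single bin (75150001 to 75200000) right after the Gsx2 run. Its bin was B.1.2 and B.1.1 in the controls, B.1.2 in both Brg1KD libraries and A.2.1 in both Ino80KD libraries, the label Gsx2 took there. A further pair of runs, which hold no midpoint of a protein-coding gene (79000001 to 79250000 and 13200001 to 13350000), were 1 class higher in both Ino80KD libraries. The fifth, a single bin (128400001 to 128450000) before the Fzd10 run, was B.1.2 in control, A.2.2 in Ino80KD and A.2.1 in Brg1KD, in each case the label of the first bins of that run.

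Of the 8 largest runs towards B in Brg1KD 4 lie at places described above, those of the stretch from 111450001, of the Ugt2 and casein genes, of Ldb2 and the stretch from 74650001. This last one had the largest step: rank 6 in both controls, 4.00 in both Brg1KD libraries and 5.00 in both Ino80KD libraries. The run with the largest summed shift (43050001 to 43700000) holds Gm46911, Cpeb2, which regulates mRNA translation, and C1qtnf7, a secreted C1q-like protein. There the mean rank was 2.00 and 2.31 in control, 1.00 in both Brg1KD libraries, and 1.92 and 1.62 in Ino80KD, and limma called 2 of the 13 bins. Uchl1, the neuronal deubiquitinase, shares a run (66250001 to 66750000) with Nsun7 and Apbb2 that was A.1.2 in control and A.2.1 in all 10 bins of either Brg1KD library (limma, adjusted p = 8.00e-08 at each gene, 0.236 with a common variance). Both Ino80KD libraries were also A.2.1 there.

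The other 2 runs towards B in Brg1KD lie at the Cpz and the Gbp genes. The run of Cpz, a carboxypeptidase, Trmt44, Acox3, an enzyme of peroxisomal fat oxidation, Htra3, a serine protease, and Sh3tc1 (35450001 to 35950000) was A.1.2 in both controls, at a mean rank of 7. Brg1KD was at 6 and 5.70, and limma called 7 of the 10 bins (adjusted p = 8.00e-08 for Cpz, 0.236 with a common variance). Ino80KD was at 6.80 in both libraries, with these genes at A.1.2. The second is the guanylate-binding protein cluster with Abcg3, Gbp8, Gbp9, Gbp4, Gbp10 and Gbp6 (104900001 to 105400000), interferon-induced GTPases in the main. It had mean ranks of 2.50 and 2.00 in control, 1.00 in both Brg1KD libraries, and 2.00 and 2.70 in Ino80KD, and limma called 3 of 10 bins, those of Abcg3 and Gbp8 among them.

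Towards A, the largest Brg1KD run carries Ncapg, a condensin subunit, and Lcorl, a transcription factor gene next to it (45650001 to 45800000). Its 3 bins were rank 2 in both controls, 5 in both Brg1KD libraries, and 4 and 1 in Ino80KD, where the replicates fell on either side of control. The fit gave an adjusted p of 0.733 by limma and 1.44e-07 with a common variance. The split of the Ino80KD replicates enters the limma value, since all groups share the fit. Sema3e, an axon guidance ligand (14100001 to 14300000), was B.1.1 in both controls and A.2.1 in both Brg1KD libraries over 4 bins, of which limma called 3, though not that of the gene's midpoint (adjusted p = 0.208, and 0.00207 with a common variance). Ino80KD lay at mean ranks of 4.25 and 4.00 there, beside 4.00 in control.

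The ParaHox genes Gsx1, Pdx1 and Cdx2, homeobox factors of brain, pancreas and of trophectoderm and gut, lie with Urad and Flt3, a cytokine receptor of blood progenitors, in a run of 7 bins (147100001 to 147450000). It was A.1.2 in both controls, A.1.1 in both Brg1KD libraries, and A.1.1 and A.1.2 in Ino80KD, which thus spans both. None of these bins was called by limma (adjusted p = 0.733 at Cdx2, 0.236 with a common variance). Zfp951, a zinc finger gene, with Gm31255 and Gm20385 (104600001 to 104900000), was B.2.1 in control and B.1.2 in all 6 bins of either Brg1KD library (limma, adjusted p = 8.00e-08, 0.236 with a common variance), with Ino80KD at B.2.1 as in control. This run ends where that of Abcg3 and the Gbp genes, which went the other way, begins. Micall2, Ints1, the scaffold of the Integrator complex, Mafk, Tmem184a and Psmg3 (139550001 to 139850000) were A.1.2 in both controls and A.1.1 in both Brg1KD libraries, and limma called 3 of the 6 bins. There Ino80KD was at mean ranks of 6.50 and 7, beside 7 in control.

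**Figure D5:**
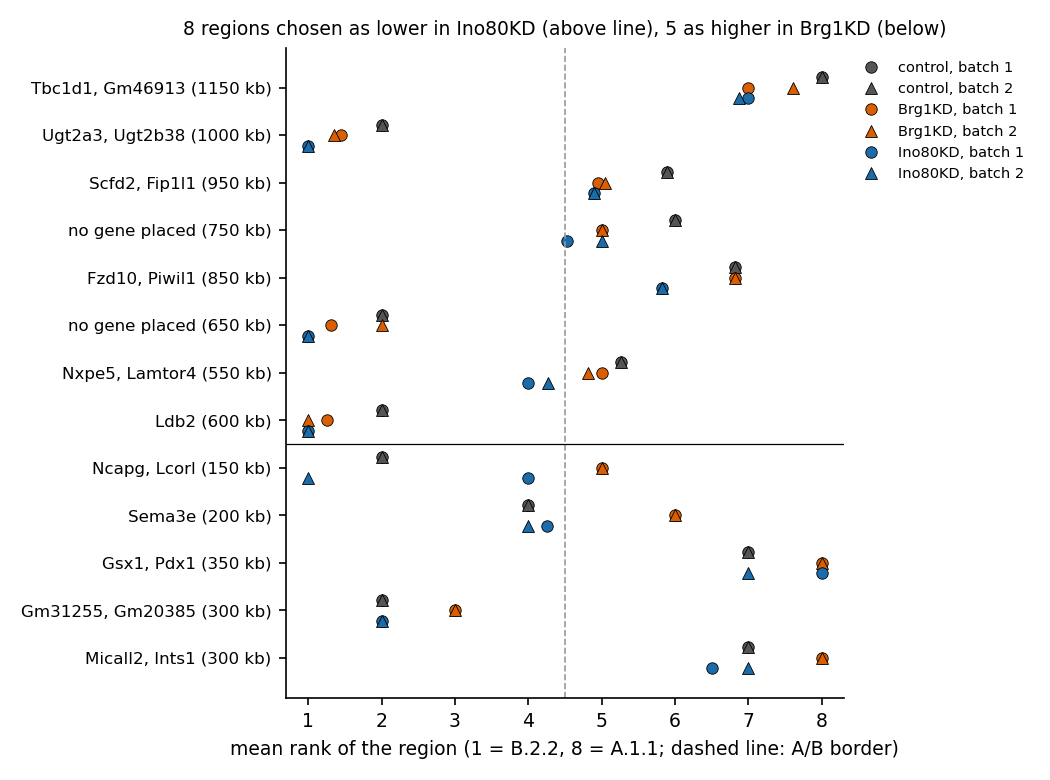
Mean rank (horizontal axis, 1 to 8) of 13 chromosome 5 regions in each library, with colours for the groups and symbols for the batches. Above the line are the 8 regions with the largest summed shift towards B in Ino80KD, below it the 5 with the largest towards A in Brg1KD; the Fzd10 region is at 6.82 in control and Brg1KD and 5.82 in Ino80KD.

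Set against each other directly, Ino80KD lay towards B of Brg1KD in 163 bins of chromosome 5 (5.58%; 4.24% of all bins) and towards A of it in 69 (2.36%; 4.63% of all). By limma with Benjamini-Hochberg adjustment the counts were 113 (3.87%; 1.82% of all bins) and 41 (1.40%; 2.14% of all). These counts use the Ino80KD ranks by which the chromosome was picked, and are a description. All 17 bins of the Fzd10 run were called, as were all 7 of the Clnk run, all 6 of the Zfp951 run and all 6 of the stretch from 74650001, 13 of 19 of the Gsx2 run, and 7 of 10 of the Cpz run. By contrast limma called 0 of 23 bins of the Tbc1d1 and Klf3 run, the longest, 0 of 15 of the stretch from 111450001, 0 of 11 of the Stag3 run, 0 of 12 of the Ldb2 run, 0 of 10 of the Uchl1 run and 0 of 7 of the ParaHox run, and 0 in each of these also had an unadjusted p under 0.05. The regions were chosen by their shift against control in one of the same knockdowns, and many of their bins have no residual spread, so these counts support nothing.

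Genes in shifted bins lay mainly towards B in both knockdowns, as the bins did, so nothing particular to genes is read from this. Of the bins of the chromosome 12.4% lay towards B and 0.822% towards A in Ino80KD, and 9.32% and 2.47% in Brg1KD. The counts of the gene lists below stand beside these shares. Of the 1216 protein-coding genes placed by their midpoint, of 1268 on the chromosome, 126 lay in bins towards B and 5 in bins towards A in Ino80KD, and 90 and 33 in Brg1KD. By limma 55 and 15 of them were in called bins of Brg1KD, beside 5.34% and 1.03% of the bins of the chromosome. Of 18 developmental transcription factors 5 lay towards B and 0 towards A in Ino80KD, and 1 and 4 in Brg1KD, where limma called 1, Hmx1, towards A. Among those towards B in Ino80KD are Mnx1, a factor of motor neurons, Gsx2, and Msx1 and Uncx, the last 2 named after their values were seen. Mnx1 was A.1.1 in both controls, A.2.1 in both Ino80KD libraries, and A.1.2 and A.1.1 in Brg1KD. The 4 towards A in Brg1KD are Hmx1 and, in 1 shared run that limma did not call, Gsx1, Pdx1 and Cdx2, so they lie at 2 places. Nkx6-1 had B.1.2 and A.1.2 in the controls and A.1.2 in the other 4 libraries.

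Of 25 signalling receptors and ligands 2 lay towards B and 1 towards A in Ino80KD, and 3 and 2 in Brg1KD. Kit, the receptor of stem cell factor, which lies beyond Pdgfra on the chromosome, was A.2.1 in both controls, B.1.1 in both Brg1KD libraries, and A.2.2 and A.2.1 in Ino80KD (limma, adjusted p = 0.208 in Brg1KD, and 0.00207 with a common variance). Pdgfra, as above, was higher in Ino80KD, while Brg1KD carried the label of the control of batch 1. Wfs1, named after its values were seen, is in this list and its counts, though it is an endoplasmic reticulum protein and no receptor or ligand. It was A.1.2 in control and A.2.1 in all 4 knockdown libraries, so it is among those towards B in both knockdowns. It was the 1 member that limma called in Brg1KD. Shh, the hedgehog ligand, was B.2.1 in 5 libraries and A.2.1 in Ino80KD of batch 2, so that its mean shift of 2.0 classes rests on 1 library.

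Among the gene families that lie in clusters on the chromosome, neighbours often share a segment, so their counts are not counts of independent events. All 5 caseins lay towards B in Ino80KD and 4 in Brg1KD, with Csn3 at B.2.1 and B.2.2 in Brg1KD. Of 10 Ugt2 genes 4 lay towards B in each knockdown, and limma called these 4 and the 4 caseins in Brg1KD. Among 16 genes of the Gbp and Oas families 8 lay towards B in Ino80KD, all of them Oas genes, and 11 in Brg1KD, 5 Gbp and 6 Oas genes, and limma called 7. Oas3 and Oas1e, sensors of double-stranded RNA or their relatives, were A.1.1 and A.1.2 in the controls, A.2.1 in both Ino80KD libraries, and A.2.1 and A.1.1 in Brg1KD. None of the 13 chromatin regulators, 4 GABA-A receptor genes, 10 chemokines (in 5 bins) and 9 Cyp3a genes lay in a bin beyond both controls in either knockdown. In Brg1KD limma called 0 of them (0 also at an unadjusted p under 0.05). Of all 1216 placed genes 126 lay towards B and 5 towards A in Ino80KD, and 90 and 33 in Brg1KD. Nothing is therefore read from a 0 in lists this short. Of 10 vomeronasal receptor genes 1, Vmn2r13, lay towards A in Ino80KD. Kmt2c and Kmt2e, histone methyltransferase genes, and Setd1b moved by at most 0.5 classes in the means. The 4 GABA-A receptor genes were B.2.2 in every library and could go no lower. Families such as Ugt2, Oas, Cyp3a and Vmn2r hold near-identical copies, so labels there may rest on reads that fit several of them.

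The 3 loop lists were close in number and length on chromosome 5. The files give 1 list a group with no score, taken as pooled from both libraries, so loops have no replicate check. Loops were at 2.46 per labelled Mb in control, 2.53 in Brg1KD and 2.32 in Ino80KD, beside 2.41, 2.45 and 2.23 on the other autosomes. Their median length was 250, 240 and 250 kb. Of the control loops 217 of 359 had both anchors in bins that were A in both controls, and of the Brg1KD and Ino80KD loops 218 and 201. A promoter of a protein-coding gene lay in an anchor of 21.4%, 17.9% and 19.5% of the loops.

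With identical anchors, 152 of the 359 control loops were also in the Brg1KD list (42.3%, 95% Wilson interval 37.3 to 47.5) and 163 in the Ino80KD list (45.4%, 40.3 to 50.6). With each anchor allowed to differ by 10 kb, the width of an anchor, these were 277 (77.2%) and 275 (76.6%), and on the other autosomes 77.2% and 75.3%. At that tolerance 236 control loops were in both knockdown lists, 41 in Brg1KD only, 39 in Ino80KD only and 43 in neither. The intervals cover counting error only. Of the 77 control loops with an anchor in a bin towards B in Ino80KD, 56 were in the Ino80KD list (72.7%, 61.9 to 81.4), and of the 274 with no anchor in a shifted bin 214 (78.1%, 72.8 to 82.6). For Brg1KD these were 50 of 65 (76.9%, 65.4 to 85.5) and 214 of 273 (78.4%, 73.1 to 82.9). Loops of 1 pooled list are not replicates, and the bins towards B are those the chromosome was picked by, so these shares are a description with no test.

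The Fzd10 run had 11 loops with an anchor in it in control, 10 in Brg1KD and 6 in Ino80KD. A loop of 130 kb with the Rimbp2 promoter in one anchor (128820001 to 128830000 and 128950001 to 128960000) was in the control and Brg1KD lists and not in that of Ino80KD. So was one that spans Adgrd1 (129050001 to 129060000 and 129220001 to 129230000), within 10 kb, and one to 129330001 to 129340000. In the Gsx2 run the counts were 7, 7 and 6, and the loop from Scfd2 to Pdgfra (74430001 to 74440000 and 75150001 to 75160000, 720 kb) was in all 3 lists within 10 kb. In the region of Tbc1d1 and Klf3 they were 5, 4 and 4.

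At the ParaHox genes the lists differed the other way. A loop of 120 kb joined the anchors of the Gsx1 and Cdx2 promoters in control (147180001 to 147190000 and 147300001 to 147310000). It had a match within 10 kb in Ino80KD and none in Brg1KD. The same held for loops from Pdx1 (147270001 to 147280000) to 147730001 to 147740000 and from next to Gsx1 (147190001 to 147200000) to the anchor with the Flt1 promoter (147720001 to 147730000). Brg1KD had a loop of 180 kb from 147120001 to 147130000 to the Cdx2 anchor, which neither other list held. The run counted 5 loops in control, 4 in Brg1KD and 6 in Ino80KD. At Ncapg and Lcorl, where the label moved by 3 classes in Brg1KD, the same 2 loops were in all 3 lists, one of them from the Lap3 promoter (45490001 to 45500000) to 45670001 to 45680000.

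The 3 longest loops of each list lay at a pair of places on the chromosome. In control the longest was 1960 kb, from the Nkx1-1 promoter (33430001 to 33440000) to the anchor 35390001 to 35400000 within Hmx1. It was matched within 10 kb in Ino80KD and not in Brg1KD. A loop to the same place from 33710001 to 33720000 (1680 kb in control) was in all 3 lists, and in Brg1KD its anchor 35380001 to 35390000 held the Hmx1 promoter. The third, from 118170001 to 118180000 to 119830001 to 119840000 within Tbx5 (1660 kb), was in the control list only, and all 3 lists had a shorter one from the same anchor, 1490 kb in Brg1KD and 1500 kb in Ino80KD. The Brg1KD list also held a loop of 1630 kb from the anchor with the Tesc promoter (118020001 to 118030000) to 119650001 to 119660000, which had no match within 10 kb in the other lists.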

How the data were processed

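The Hi-C libraries are 6, with 2 each for control, Brg1KD and Ino80KD, all from E14 cells. For each library the authors deposited its subcompartment segments, with a label and a score per segment, the rank of the label in steps of an eighth, which was multiplied to ranks from 1 to 8. The loop lists that the authors deposited, 1 a group, hold anchor positions only. They are recorded with replicate 2, but their names call them merged, and they were used as pooled lists. Per the submitters' processing notes the build was mm10, and the tools named, with no roles, include Juicer 2.0, bedtools, HOMER, SAMtools and BWA. The sources used here do not give how depth was treated or which tool called subcompartments and loops. Ranks are relative within a library.

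Segments were cut into 50 kb bins, and bins labelled in all 6 libraries were kept. A model per bin (lmFit and eBayes of limma 3.58.1, under R 4.3.3; all 3 groups in 1 fit, Benjamini-Hochberg threshold 0.05 over all 47717 bins) was fitted to the ranks and also run on simulated ranks. Shares were compared by exact permutation of libraries. Genes were placed in the bin of their midpoint from the RefSeq table of GRCm38.p6, and promoters in anchors by the RefSeq promoter table. Loops matched when both anchors were identical, or within 10 or 20 kb. The batch is named in the labels, so same-numbered libraries pair. Over all bins, their deviations from the group means correlated with r = 0.102 between control and Ino80KD, 0.0984 between control and Brg1KD, and 0.0885 between the knockdowns.

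Chromosome 5, its 10 gene lists and the tests were chosen with earlier results of these data known. Named are the 8 largest runs of shifted bins towards B and the 5 largest towards A per knockdown, by summed shift, with up to 6 genes each, the 3 windows with most shifted bins each way, up to 4 members per list with the largest shift, up to 3 loops with an anchor in a run, and the 3 longest loops of each list. Which loops of a run were named, and the further list members Msx1, Uncx, Hmx1, Wfs1, Csn3 and those of the listed counts, was settled after their values were seen. Some genes that this rule names are not reported here. Alternatives tried were 100 kb bins, base pairs in place of bins, each library left out, the batch as a block, a common variance, only the 4 libraries compared, wider matching of loops and 5 Mb windows.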

Additional observations from a re-analysis of the deposited data

Results flagged for a closer look

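Between 50 and 60 Mb on chromosome 5 the mean shift was -0.188 classes in Ino80KD (-0.240 and -0.135 within the batches) and 0.020 in Brg1KD (0.010 and 0.030), so the Ino80KD libraries lay below the control of their batch and the Brg1KD libraries within 0.030 classes of it, on its other side. The difference was not tested.

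In 5 of the named runs limma, with Benjamini-Hochberg adjustment, called every bin in the direct comparison of the knockdowns, which is a description and no test. These were 17 of 17 bins at Fzd10 (128450001 to 129300000), 7 of 7 at Clnk (38750001 to 39100000), 1 of 1 just before the Fzd10 run (128400001 to 128450000), 6 of 6 in the stretch with no protein-coding gene placed in it from 74650001 to 74950000 and 6 of 6 at Zfp951 (104600001 to 104900000). The runs were chosen by a shift in one of these knockdowns, on a chromosome picked by its Ino80KD shift. Their bins have no residual spread, so nothing is read from these calls.

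A stretch of 41 bins (93750001 to 95800000, 2.05 Mb) had a label, B.2.1, in Ino80KD replicate 1 and in no other library. It is in none of the comparisons. This library was labelled over 148.4 Mb of chromosome 5 and the others over 146.35 to 146.7 Mb.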

How the results depend on the processing

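The A share and the mean rank of chromosome 5 kept their direction under every alternative run. Within a batch or with a library left out this could not come out otherwise, since both libraries of each knockdown lay below both controls. For Ino80KD the direction is also what the chromosome was picked for. For the A share of Ino80KD the difference of -3.73 points was -3.14 with 100 kb bins, and -4.08 to -3.39 with 1 library left out. It was -1.82 to -1.13 for Brg1KD, whose difference of -1.47 points was -1.82 without control replicate 1 and -1.13 without control replicate 2. With the batch as a replicate block the differences are -3.73 and -1.47 points by construction, since each batch holds 1 library of each group, so this checks nothing. The counts of bins beyond control in the same way in both batches were 381 and 26 (towards B and A) in Ino80KD and 295 and 82 in Brg1KD. Every bin without overlap between groups is among them, so the counts could not fall. By limma with the block they were 220 and 14, and 161 and 34, so the pairing moved none of these counts by over 1.5 times.

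With 100 kb bins, which are about 1 for every 2 bins of 50 kb, the bins without overlap were 202 and 15 in Ino80KD and 155 and 44 in Brg1KD, and the limma counts 103 and 5, and 76 and 14. Leaving out a library leaves 1 against 2, a looser rule, and raised every count. Without control replicate 1, control replicate 2, knockdown replicate 1 and knockdown replicate 2, in this order, the bins towards B were 571, 577, 594 and 532 in Ino80KD and 448, 442, 445 and 474 in Brg1KD, and those towards A 64, 90, 78 and 143, and 139, 178, 152 and 234. The limma counts were 335, 324, 339 and 341 towards B and 35, 49, 48 and 87 towards A in Ino80KD, and 263, 255, 259 and 272, and 60, 77, 83 and 130, in Brg1KD, where the lone library is assumed to vary like those of the other groups. A common variance gave 14 and 6 in Ino80KD and 84 towards B in Brg1KD, and only the 4 libraries compared gave 333 towards B in Ino80KD and 63 towards A in Brg1KD. The cause of the last was not tested.

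Control loops also found in Brg1KD rose from 152 to 277 and 293 when anchors could differ by 10 and 20 kb, and those in Ino80KD from 163 to 275 and 281. With 5 Mb windows the window with most bins towards B began at 100 Mb in Ino80KD, in place of 60 Mb, and at 35 Mb in Brg1KD, in place of 40 Mb. The 2 libraries a group and the 8 steps of the rank limit what could be told apart, and the depth of the libraries is unknown.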
